A study of Homo sapiens with 16 samples.

Results

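The comparison described here was the difference between T-47D and Ishikawa cells in their response to 17β-estradiol (E2) after 4 to 8 h. Ishikawa cells come from a human endometrial adenocarcinoma. T-47D cells come from a human breast ductal carcinoma, so each arm of the comparison is 1 line. Both were held in phenol red-free, hormone-deprived medium and then given 10 nM E2 for 0, 2, 4 or 8 h, where 0 h was the vehicle. Poly(A) RNA was sequenced from 2 replicates of each line and time, which gave 16 libraries. Within each line the 4 libraries of 4 h and 8 h were pooled as late and the 2 libraries of 0 h served as baseline, so 12 of the 16 libraries entered the comparison. The late change of a gene is its log2 fold change of late against 0 h in 1 line. The difference is the late change in T-47D minus the late change in Ishikawa. It is higher in T-47D when positive and lower in T-47D when negative.

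E2 enters cells and binds the estrogen receptor ERα, encoded by ESR1, a nuclear receptor that then binds DNA and changes transcription of nearby genes. Breast and endometrium both proliferate under estrogen, and carcinomas of either tissue can keep that response. The binding sites open to the receptor are known to differ between tissues. Genes reached later include products of the first transcription factors made, and those needed to enter S phase.

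GATA3, a luminal breast factor, stood at a mean of 1209.9 CPM (counts scaled to a common library total) in T-47D and 0.0425 in Ishikawa at 0 h, and 5 of 15 breast luminal markers had 0 counts in every Ishikawa library. Among those 5, SCGB2A2 was also at most 0.0494 CPM in T-47D. Of the 15, 7 were over 1 CPM in Ishikawa and 12 in T-47D. EMX2 and SOX17, factors of the Müllerian tract, had means of 92.7 and 43.2 CPM in Ishikawa and 0 in T-47D at 0 h. The endometrial marker list as a whole did not separate the lines that way. Its 14 members summed to 2978 to 3058 CPM in Ishikawa and 8449 to 8873 CPM in T-47D at 0 h, since it holds KRT8, KRT18 and KRT19, keratins that were higher in T-47D. Of its members 11 were over 1 CPM in Ishikawa and 6 in T-47D. Of 12 white blood cell markers 3 had counts enough to be tested, and their summed 784 to 846 CPM in Ishikawa was almost all LCP1, against 10.2 to 12.1 CPM in T-47D. Stromal markers summed to 176 to 304 CPM in Ishikawa and 82.7 to 109 CPM in T-47D. Most of this was COL1A1, at 150 to 269 CPM in Ishikawa and 71.7 to 92.1 CPM in T-47D. The 12 libraries held 41177912 to 64148903 counts.

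Of 16941 genes tested, 1247 (7.36%) differed between the lines in their late change, 668 (3.94%) higher in T-47D and 579 (3.42%) lower. A difference was called where edgeR's quasi-likelihood test gave a Benjamini-Hochberg adjusted p below 0.05, and errors given with ± are standard errors on the log2 scale from that fit. In their own contrasts, 1791 genes (10.6%) rose and 1822 (10.8%) fell in Ishikawa, while 1711 (10.1%) rose and 1415 (8.35%) fell in T-47D. The median size of a called difference was 0.61 on the log2 scale, and 319 called differences exceeded 1. Of these 319, 136 were among the 143 called genes with under 50 mean counts in 1 line or the other. The other 183 were among 1104 called genes with at least 50 in both lines, where the median size was 0.55. Leaving out Ishikawa 0 h replicate 2, T-47D 0 h replicate 1 or T-47D 0 h replicate 2 brought the total to 765, 738 and 808. The labels do not say whether replicates were separate cultures, so the p-values measure the spread between these libraries.

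**Figure D1:**
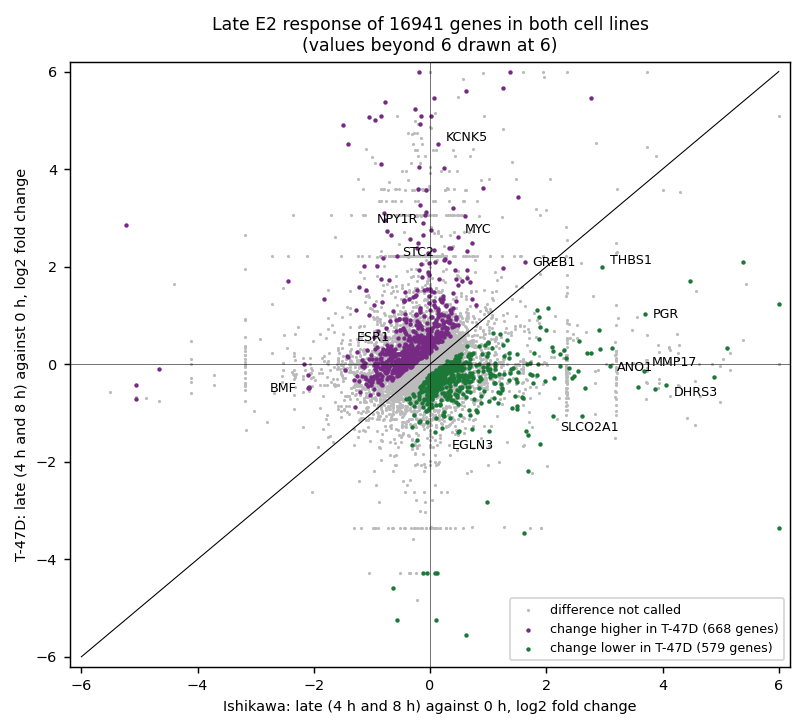
Late change (4 h and 8 h pooled against 0 h, log2) in Ishikawa on the x axis and T-47D on the y axis for each gene tested; the line marks equal change. The 668 genes whose change was higher in T-47D (purple) lie above the line and the 579 that were lower (green) lie below it, and streaks far from 0 are genes at or near 0 counts in a group.

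Most differences were a response in 1 line that did not pass the test in the other. Among the 668 genes higher in T-47D, 252 rose in T-47D with no call in Ishikawa and 241 fell in Ishikawa with no call in T-47D. A further 64 rose in both lines, 40 fell in both, 47 moved in opposite directions and 24 were called in neither line alone. Among the 579 genes lower in T-47D, 206 fell in T-47D with no call in Ishikawa and 203 rose in Ishikawa with no call in T-47D. The others were 103 with opposite directions, 33 that rose in both, 16 that fell in both and 18 called in neither. Both contrasts were read from the same 0 h libraries as the difference.

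The classical targets of ERα split in both directions. All 40 genes of the list were tested. In T-47D 35 rose (10.1% of all genes) and in Ishikawa 22 (10.6%), and none fell in either line. Of these 40, 16 had a higher change in T-47D and 7 a lower one, which makes 57.5% against 7.36% of all genes. The genes are known as targets largely from breast cancer lines. The median difference was 0.55, against 0.02 over all genes tested. The median member stood 0.98 to 1.11 above 0 h in the T-47D late libraries and 0.35 to 0.52 in those of Ishikawa, on the log2 scale.

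Among the targets with the higher change in T-47D, STC2, which encodes the secreted glycoprotein stanniocalcin 2, had 146 and 145 CPM at 0 h in T-47D. Its late T-47D libraries held 534 and 575 CPM (4 h) and 732 and 747 CPM (8 h). The Ishikawa libraries held 240 CPM in both at 0 h, 302 and 280 (4 h) and 283 and 288 (8 h). All late libraries were above baseline in both lines, but the change of 2.15 ± 0.11 in T-47D passed the test and that of 0.26 ± 0.10 in Ishikawa did not (edgeR adjusted p = 0.060). The difference was 1.89 ± 0.14 (edgeR adjusted p = 3.34e-08). STC2 lies on chromosome 5 at 172741726-172755450, minus strand, in hg19, the build of the alignment.

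KCNK5, an acid-sensitive potassium channel, went from 0.668 and 0.346 CPM at 0 h in T-47D to between 9.34 and 13.4 CPM in the late libraries. In Ishikawa its level was already 13.2 and 13.5 CPM at 0 h and between 12.9 and 16.6 CPM late. After E2 the T-47D libraries thus reached about the level at which Ishikawa had stood throughout, and the difference in change was 4.37 ± 0.27 (edgeR adjusted p = 4.98e-09). MYB, a transcription factor of proliferating progenitors, rose from 6.66 and 5.34 CPM to between 25.2 and 26 CPM in T-47D. It rose less in Ishikawa, from 3.62 and 3.46 CPM to between 4.15 and 4.68 CPM, a difference of 1.76 ± 0.15. Its relative MYBL1 differed by 1.30 ± 0.13. XBP1, which drives secretory capacity, rose in both lines with a difference of 0.76 ± 0.09, and FKBP4, a cochaperone of steroid receptors, also rose in both with a difference of 0.76 ± 0.11. GREB1, an ERα cofactor and a standard target, rose in both lines, by 2.08 ± 0.08 in T-47D and 1.63 ± 0.10 in Ishikawa. The difference of 0.45 ± 0.12 for GREB1 (edgeR adjusted p = 0.026) was lost without Ishikawa 0 h replicate 2, Ishikawa 4 h replicate 2, Ishikawa 8 h replicate 1 or T-47D 0 h replicate 1. TFF1, the trefoil peptide often used to report estrogen action in breast, had 0 counts in all Ishikawa libraries, which gives no fold there. In T-47D it went from 24 and 33 counts to between 79 and 135.

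Among the 7 targets with the lower change in T-47D, most were higher in T-47D than in Ishikawa before E2. PGR, the progesterone receptor, had 1.34 and 0.96 CPM at 0 h in Ishikawa and 14.7, 14.2, 13.3 and 17.8 CPM late. In T-47D it had 660 and 654 CPM at 0 h and 1288, 1274, 1339 and 1455 CPM late. PGR rose in both lines with no overlap between late and 0 h libraries, by 3.70 ± 0.15 in Ishikawa and 1.03 ± 0.08 in T-47D, and the difference was −2.68 ± 0.18 (edgeR adjusted p = 9.50e-09). The level in the Ishikawa late libraries remained far under the T-47D baseline. CA12, a membrane carbonic anhydrase, showed the same layout, with 4.85 and 4.72 CPM rising to between 29.4 and 39.8 in Ishikawa and 375 and 371 CPM rising to between 587 and 622 in T-47D. Its difference was −2.21 ± 0.13. TGFA, a ligand of the EGF receptor, was the exception in level, since its baseline was 155 and 154 CPM in Ishikawa and 13.5 and 12.2 in T-47D. It rose by 1.85 ± 0.06 in Ishikawa and 1.12 ± 0.07 in T-47D. IGF1R, the receptor of insulin-like growth factors, and NRIP1, a corepressor of nuclear receptors, differed by −0.48 ± 0.10 and −0.44 ± 0.11. The NRIP1 call was lost without Ishikawa 0 h replicate 2 or T-47D 0 h replicate 1.

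**Figure D2:**
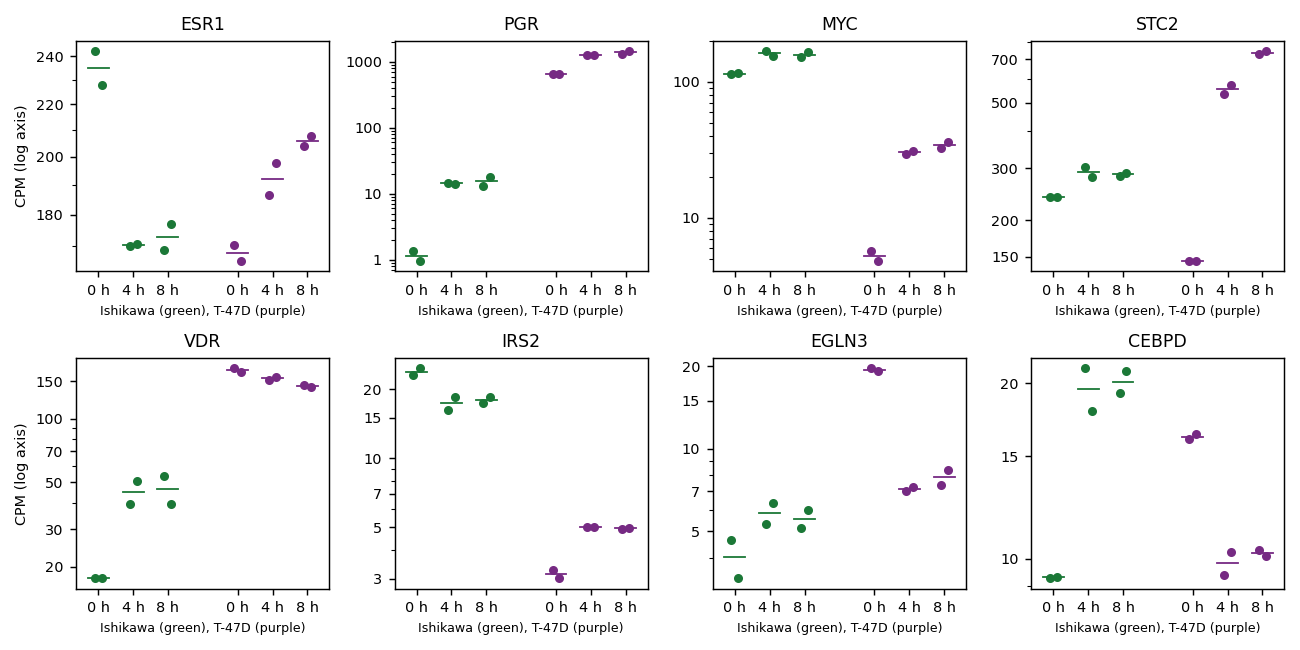
CPM (log axis) of 8 genes in each 0 h, 4 h and 8 h library of Ishikawa (green) and T-47D (purple); points are libraries and bars are means of 2. ESR1 and IRS2 fell in Ishikawa and rose in T-47D, EGLN3 and CEBPD did the opposite, and PGR, MYC and STC2 changed by different factors from different baselines.

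The receptor gene itself moved in opposite directions. ESR1 had 242 and 228 CPM at 0 h in Ishikawa and 170, 171, 169 and 177 CPM late, so every late library was below baseline. In T-47D it had 170 and 166 CPM at 0 h and 187, 198, 204 and 208 CPM late, with every late library above baseline. ESR1 fell by 0.45 on the log2 scale in Ishikawa (± 0.05) and rose by 0.24 ± 0.05 in T-47D, a difference of 0.70 ± 0.07 (edgeR adjusted p = 2.56e-06). The lines stood 1.40-fold apart at 0 h, with Ishikawa the higher. ESR1 is on chromosome 6 at 151977826-152450754 in hg19, plus strand, and overlaps SYNE1 on the other strand. Whether counting used strand was not given in the sources used here, so reads of overlapping pairs cannot be told apart. Further genes named here that overlap another tested gene include THBS1, DTL, MCM7, RFC4, PRIM1, TICRR, BRCA1, FANCA, ERBB2, EGLN3, SLC16A3, FZD4, RUNX2, TGM2 and NPY1R.

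Of 37 nuclear receptors and partners tested, 11 had a lower change in T-47D (3.42% of all genes) and ESR1 alone a higher one (3.94%). The other 25 had no call, 17 of the 37 differences were positive, and the median was −0.02. VDR, the vitamin D receptor, had 17.7 CPM in both 0 h libraries of Ishikawa and 39.4, 50.9, 53.6 and 39.4 CPM late. In T-47D it had 172 and 166 CPM at 0 h and between 141 and 157 CPM late. It rose by 1.37 ± 0.11 in Ishikawa, and its T-47D change of −0.19 ± 0.09 did not pass, with a difference of −1.56 ± 0.14 (edgeR adjusted p = 4.65e-07). NR3C1, the glucocorticoid receptor, fell by 0.38 on the log2 scale in T-47D. Its Ishikawa change of 0.11 ± 0.08 was a rise and was not called. RXRA, the shared partner of VDR and the retinoic acid receptors, fell in both lines and further in T-47D, a difference of −0.34 ± 0.07. Among the 11 were PGR, NRIP1, NR5A2, VDR, NR3C1, ESRRA, NR2F6, RXRA and NCOA3. Without T-47D 0 h replicate 1 the count of 11 was 5, and the calls of NR3C1 and NRIP1 were among those lost.

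Genes of DNA replication rose in T-47D alone by the test. Cells license origins by loading the MCM helicase with the help of CDC6 and CDT1, and then fire them with GINS and the polymerases at the start of S phase. Transcription of many of these genes is driven by E2F factors, whose sites lie close to the transcription start. Of 56 members tested, 29 rose in T-47D (10.1% of all genes) and none fell (8.35%). In Ishikawa none rose (10.6%) and 2 fell (10.8%). The difference was positive for 55 of 56 members and for 9106 of all 16941 genes, with medians of 0.27 and 0.02. It was called for 14 (25%, against 3.94% of all genes in that direction), and none was called lower. With median-of-ratios scaling, 53 were positive and 11 called.

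The sizes were modest and grew with time in T-47D. The median member stood 0.13 and 0.14 above the 0 h mean in the 4 h libraries and 0.37 and 0.34 in the 8 h libraries of T-47D, on the log2 scale. In Ishikawa the 4 late medians lay between −0.05 and 0.02, within reach of the 0 h libraries at 0.03 and −0.03. Taking 8 h alone as late, 28 members were called higher (3.01% of all genes) and none lower (3.8%). Taking 4 h alone, 1 was called higher (2.04%) and none lower (2.44%). Between 4 h and 8 h, 10 members rose in T-47D, where 82 genes in all were called (0.484%), and 2 genes in all were called in Ishikawa (0.0118%). In Ishikawa the 4 h replicate 1 library was nearer to 8 h replicate 2 than to its own replicate for MMP17, ANO1, SLCO2A1 and GDPD5, whose levels are given further on. The part of this in the low Ishikawa count was not tested. At unadjusted p under 0.05 these were 1640 and 617 genes. At 2 h no member was called, when 411 genes (2.40%) differed between the lines.

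DTL, a substrate receptor of the ubiquitin ligase that removes CDT1 in S phase, had the lowest adjusted p of the list. Its levels were 54.3 and 52.4 CPM at 0 h in T-47D, 74.3 and 76.7 (4 h), and 94 and 97.1 (8 h). In Ishikawa they were 83.1 and 76.9 CPM at 0 h and 80.5, 76.8, 81.3 and 83.2 late. The T-47D libraries passed the Ishikawa level by 8 h, and the difference was 0.67 ± 0.12 (edgeR adjusted p = 0.0016). CDC6 rose from 58.8 and 53 CPM to 75.4, 73.3, 92.1 and 89.7 CPM in T-47D. In Ishikawa CDC6 held 95.9 and 89.8 CPM at 0 h and between 98.5 and 107 CPM late, not called, with a difference of 0.44 ± 0.11. MCM7, a helicase subunit, had 108 and 101 CPM at 0 h in T-47D, 120 and 117 (4 h) and 156 and 146 (8 h). MCM2 and MCM5, subunits of the same ring, differed by 0.49 ± 0.14 and 0.57 ± 0.16. CDT1 differed by 0.40 ± 0.10, GINS3 by 0.45 ± 0.11, and CHAF1B, a subunit of the histone chaperone that follows the fork, by 0.46 ± 0.11. POLD1 and POLE, catalytic subunits of the replicative polymerases, differed by 0.42 ± 0.11 and 0.38 ± 0.11, and POLE fell in Ishikawa with no call in T-47D. The POLE difference was 0.21 without Ishikawa 0 h replicate 2, with no call (edgeR adjusted p = 0.38). The other called members were TICRR, LIG1, RFC4 and PRIM1.

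The count of 14 depended on single libraries. It was 8 without Ishikawa 0 h replicate 1, 4 without Ishikawa 0 h replicate 2, 9 without Ishikawa 8 h replicate 1 and 6 without Ishikawa 8 h replicate 2. It was 6 without T-47D 0 h replicate 1, 2 without T-47D 0 h replicate 2 and 8 without T-47D 8 h replicate 2. DTL kept its call in each of these fits, and the other 13 each lost theirs in at least 1 fit without a library.

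The promoters of 4 of these genes are shown because they carry the letters of an E2F site within a short distance of the start. Each is RefSeq's 300 bases on GRCh38.p14, from 250 before to 50 after the start, plus strand, with TTTGGCGC or GCGGGAAA in capitals, the latter being TTTCCCGC read on the other strand. DTL is chr1:212035498-212035797, CDC6 is chr17:40287629-40287928, CDT1 is chr16:88803539-88803838 and GINS3 is chr16:58392221-58392520.
DTL: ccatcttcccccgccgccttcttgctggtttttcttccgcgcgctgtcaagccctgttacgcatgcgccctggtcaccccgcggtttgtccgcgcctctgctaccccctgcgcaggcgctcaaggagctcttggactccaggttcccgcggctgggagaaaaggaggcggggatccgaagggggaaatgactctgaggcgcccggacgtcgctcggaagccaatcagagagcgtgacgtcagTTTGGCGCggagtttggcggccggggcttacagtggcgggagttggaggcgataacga
CDC6: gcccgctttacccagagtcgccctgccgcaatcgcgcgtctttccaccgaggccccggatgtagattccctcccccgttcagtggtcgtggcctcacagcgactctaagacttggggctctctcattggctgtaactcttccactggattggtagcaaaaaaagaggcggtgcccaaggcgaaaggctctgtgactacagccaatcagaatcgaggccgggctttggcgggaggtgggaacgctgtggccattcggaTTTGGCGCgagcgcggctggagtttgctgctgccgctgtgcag
CDT1: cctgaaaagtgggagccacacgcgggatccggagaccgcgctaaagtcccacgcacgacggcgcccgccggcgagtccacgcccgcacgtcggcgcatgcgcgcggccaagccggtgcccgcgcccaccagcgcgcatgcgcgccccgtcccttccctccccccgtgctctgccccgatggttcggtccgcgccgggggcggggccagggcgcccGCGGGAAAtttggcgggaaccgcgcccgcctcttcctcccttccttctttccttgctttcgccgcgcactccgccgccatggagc
GINS3: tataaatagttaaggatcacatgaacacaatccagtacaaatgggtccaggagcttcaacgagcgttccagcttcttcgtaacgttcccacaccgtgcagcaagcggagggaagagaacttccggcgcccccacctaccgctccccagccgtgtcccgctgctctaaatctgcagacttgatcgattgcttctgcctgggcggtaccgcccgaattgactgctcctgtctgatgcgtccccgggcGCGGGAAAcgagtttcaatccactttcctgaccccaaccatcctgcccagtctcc
The letters begin 8 bases before the start in DTL, 5 before it in GINS3 and 35 before it in CDT1, and at base 7 after it in CDC6. Searched as TTTGGCGC or TTTCCCGC on both strands, they occurred in 19 of the 50 replication promoters matched by symbol (38.0%) and in 7 of the 13 matched members with a called difference. They occurred in 449 of 12964 promoters of tested genes (3.46%) and 631 of all 27305 (2.31%). A match is a description of these letters and not of binding.

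Other genes at the G1 to S boundary were called less often than replication genes (16.7% against 25%), where 7.36% of all genes were called. Of 30 cyclins, kinases, inhibitors and E2F factors tested, 3 were higher in T-47D (3.94% of all genes) and 2 lower (3.42%). E2F1, which activates S-phase genes, had 59.5 and 53.7 CPM at 0 h in T-47D, 65.2 and 68.5 (4 h) and 91.8 and 83.6 (8 h). Ishikawa had 58.1 and 61.6 CPM at 0 h and between 47.5 and 55.7 late, not called, and the difference was 0.63 ± 0.15 (edgeR adjusted p = 0.0115). E2F7, a repressor of the family, and CDC25A, the phosphatase that releases the G1 kinases, differed by 0.44 ± 0.10 and 0.48 ± 0.14. CDKN2B, the inhibitor p15, fell in both lines and further in T-47D, a difference of −0.39 ± 0.10. The count of 3 was 1 without Ishikawa 0 h replicate 2 or T-47D 0 h replicate 2, and the calls of E2F1 and CDC25A were lost there. The lower calls, CDKN2B and CDKN2A, went to 0 without either of those libraries. Of 52 genes of mitosis, 47 had a positive difference, with a median of 0.14 against 0.02 for all genes. In T-47D 9 rose (10.1% of all genes) and none fell (8.35%), and in Ishikawa 2 rose (10.6%) and 3 fell (10.8%). Of the 52, 2 were called higher, ANLN and CDC25B (3.85%, near the 3.94% of all genes). Neither was called with 4 h alone as late. ANLN was also not called with DESeq2 or with median-of-ratios scaling, and it lost its call in 14 of the 23 settings run. Late levels of CDC25B lay below both 0 h libraries in each line, by the larger factor in Ishikawa, so its higher call was not a rise in T-47D. Without T-47D 0 h replicate 1, which leaves 1 baseline library in that line, the differences were 0.32 (ANLN) and 0.27 (CDC25B).

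Homologous recombination and Fanconi anaemia genes repair broken and crosslinked DNA. Of 35 tested, 18 rose in T-47D (10.1% of all genes) and none fell (8.35%), while in Ishikawa 2 rose (10.6%) and 2 fell (10.8%). All 35 differences were positive, and 9 were called (25.7%, against 3.94% of all genes in that direction). Taking 8 h alone as late, 6 were called, and between 4 h and 8 h in T-47D 1 member rose. With median-of-ratios scaling 33 were positive and 6 called. XRCC2, a recombination factor, had 5.42 and 5.02 CPM at 0 h in T-47D and 7.06, 7.86, 9.76 and 8.17 CPM late. In Ishikawa it had 25.5 and 26.2 CPM at 0 h and between 24.8 and 26.3 CPM late, so the late libraries did not leave the baseline. The XRCC2 difference was 0.67 ± 0.15 (edgeR adjusted p = 0.0073). BARD1, the partner of BRCA1, differed by 0.48 ± 0.11 and BRCA1 by 0.41 ± 0.11. FANCA rose by 0.28 ± 0.09 in T-47D and fell by 0.28 on the log2 scale in Ishikawa. The nuclease subunit MRE11A differed by 0.34 ± 0.08. The count of 9 was 1 without T-47D 0 h replicate 2, 3 without T-47D 0 h replicate 1 or Ishikawa 0 h replicate 2, 4 without Ishikawa 4 h replicate 2 and 5 without Ishikawa 0 h replicate 1, Ishikawa 4 h replicate 1 or Ishikawa 8 h replicate 2.

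**Figure D3:**
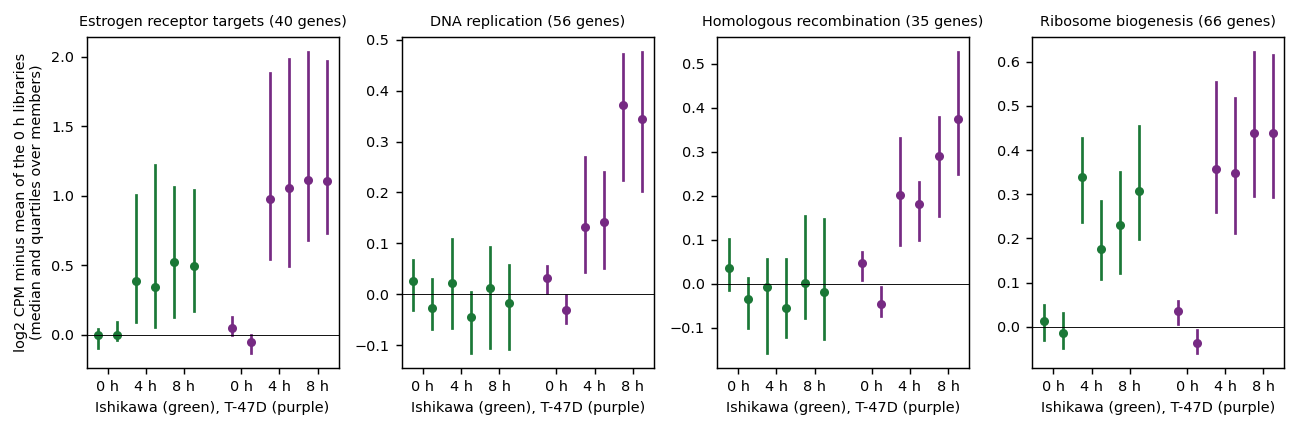
Median (point) and quartiles (line) over list members of log2 CPM minus the mean of the 0 h libraries of the same line, for each library of Ishikawa (green) and T-47D (purple). Replication and recombination genes stayed near 0 in Ishikawa and rose in T-47D, where replication genes stood higher at 8 h than at 4 h. Ribosome biogenesis genes rose in both lines.

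MYC, a driver of growth and ribosome production, had one of the clearest differences. It had 5.69 and 4.82 CPM at 0 h in T-47D and 29.7, 31.1, 32.6 and 35.9 CPM late. In Ishikawa it had 114 and 116 CPM at 0 h and 168, 156, 152 and 166 CPM late. All late libraries were above baseline in both lines, and the T-47D level after E2 was still under the Ishikawa level before it. MYC rose by 2.62 ± 0.09 in T-47D and 0.48 ± 0.07 in Ishikawa, a difference of 2.14 ± 0.11 (edgeR adjusted p = 6.91e-10). The list of 15 genes that holds MYC, its partners and also MYB and MYBL1 had 4 higher in T-47D (3.94% of all genes). They were MYC, MYB, MYBL1 and MXD3, of which MYB and MYBL1 are not partners of MYC. MXD3, a partner of MAX, fell by 0.78 on the log2 scale in Ishikawa alone by the test.

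Ribosome biogenesis genes, which process ribosomal RNA in the nucleolus, responded in both lines. Of 66 tested, 56 rose in T-47D (10.1% of all genes) and 45 in Ishikawa (10.6%), with medians of 0.40 and 0.26, and none fell. The difference was called for 9 (13.6%, against 3.94% of all genes in that direction), all higher in T-47D, and its median was 0.12. With median-of-ratios scaling 49 were positive and 6 called, and the median was 0.08, against −0.02 for all genes. RRS1, an assembly factor of the large subunit, had 28.9 and 27.8 CPM at 0 h and between 53 and 57 CPM late in T-47D. RRS1 in Ishikawa had 62.6 CPM in both 0 h libraries and between 78.4 and 89.2 CPM late, and the difference was 0.52 ± 0.08 (edgeR adjusted p = 4.19e-04). NOP56, a core protein of box C/D particles, differed by 0.51 ± 0.09, BYSL, an assembly factor of the small subunit, by 0.43 ± 0.10, and the helicases DDX10 and DDX21 by 0.42 ± 0.10 and 0.33 ± 0.08. The count of 9 was 5 without Ishikawa 4 h replicate 2 and 4 without T-47D 0 h replicate 2. Cytosolic ribosomal proteins (78 tested) had no called difference and no called change in either line.

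Heat shock proteins and cochaperones also rose in both, 19 of 28 in T-47D (10.1% of all genes) and 21 in Ishikawa (10.6%). BAG3, a cochaperone of HSP70, went from 78.8 and 80.7 CPM to between 186 and 194 in Ishikawa. It went from 56.8 and 59.2 CPM to between 74.5 and 79.9 in T-47D, a difference of −0.85 ± 0.07 (edgeR adjusted p = 1.51e-07). DNAJB1 rose in Ishikawa alone by the test, with a difference of −0.33 ± 0.06, and FKBP4 was the 1 member higher in T-47D.

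Insulin-like growth factor signalling had calls for 8 of 17 genes (47.1%, against 7.36% of all genes), 6 higher in T-47D and 2 lower. The adaptor genes of the receptor behaved alike in T-47D. IRS2 had 3.27 and 3.01 CPM at 0 h and 5.04, 5.03, 4.93 and 4.97 CPM late in T-47D. The Ishikawa libraries had 22.9 and 24.6 CPM at 0 h and 16.2, 18.5, 17.5 and 18.5 CPM late. It rose by 0.67 ± 0.11 in T-47D and fell by 0.43 on the log2 scale in Ishikawa, a difference of 1.10 ± 0.14 (edgeR adjusted p = 2.47e-05). IRS1 rose by 0.46 ± 0.07 in T-47D, and its Ishikawa change was −0.04 ± 0.08, not called. The IRS1 call was lost without Ishikawa 0 h replicate 2. GRB10, an adaptor that dampens the receptor, differed by 0.44 ± 0.08. The binding proteins split. IGFBP5 fell by 0.62 on the log2 scale in Ishikawa. Its T-47D change of 0.23 ± 0.10 was a rise and was not called. IGFBP4 rose in both lines, from 0.383 and 0.835 CPM to between 1.71 and 2.67 CPM in Ishikawa and from 276 and 257 CPM to between 426 and 501 CPM in T-47D. Its difference of −1.14 ± 0.27 became −0.69, with no call, without Ishikawa 0 h replicate 1, and −1.81 without Ishikawa 0 h replicate 2. The list also holds STC1 and STC2, which encode stanniocalcins. STC2 is counted in the ERα target and ATF4 lists as well, so lists share members. STC1 and STC2 had the largest positive differences in the insulin-like growth factor list. That of STC1 was 2.11 ± 0.48, from a mean of 0.254 CPM at 0 h in Ishikawa, and without Ishikawa 0 h replicate 1 it was 1.11 with no call (edgeR adjusted p = 0.394).

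Glycolysis and hypoxia genes had 8 of 39 lower in T-47D (3.42% of all genes) and 2 higher (3.94%). EGLN3, an oxygen-sensing prolyl hydroxylase, had 19.6 and 19.2 CPM at 0 h in T-47D and 7.03, 7.27, 7.41 and 8.38 CPM late. In Ishikawa it had 4.66 and 3.38 CPM at 0 h and between 5.14 and 6.32 CPM late. EGLN3 fell by 1.37 on the log2 scale in T-47D and rose by 0.50 ± 0.14 in Ishikawa, a difference of −1.87 ± 0.18 (edgeR adjusted p = 1.47e-06). SLC16A3, which exports lactate, rose from 71 and 77.7 CPM to between 125 and 142 in Ishikawa and fell from 26.6 and 21.3 CPM to between 17.5 and 20.3 in T-47D. DDIT4, an inhibitor of mTORC1, fell in both lines and further in T-47D, a difference of −0.97 ± 0.14. HILPDA, a lipid droplet protein, fell by 0.62 on the log2 scale in T-47D and its Ishikawa change of −0.04 ± 0.08 was not called. HK2, a hexokinase, rose by 0.51 ± 0.06 in Ishikawa against 0.14 ± 0.07, not called, in T-47D. In the other direction, PFKFB3, which makes the activator of phosphofructokinase, rose by 1.21 ± 0.08 in T-47D and 0.27 ± 0.08 in Ishikawa. The count of 8 was 5 without Ishikawa 0 h replicate 2 or T-47D 0 h replicate 2 and 4 without T-47D 0 h replicate 1, and HK2 lost its call in each of these.

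**Figure D4:**
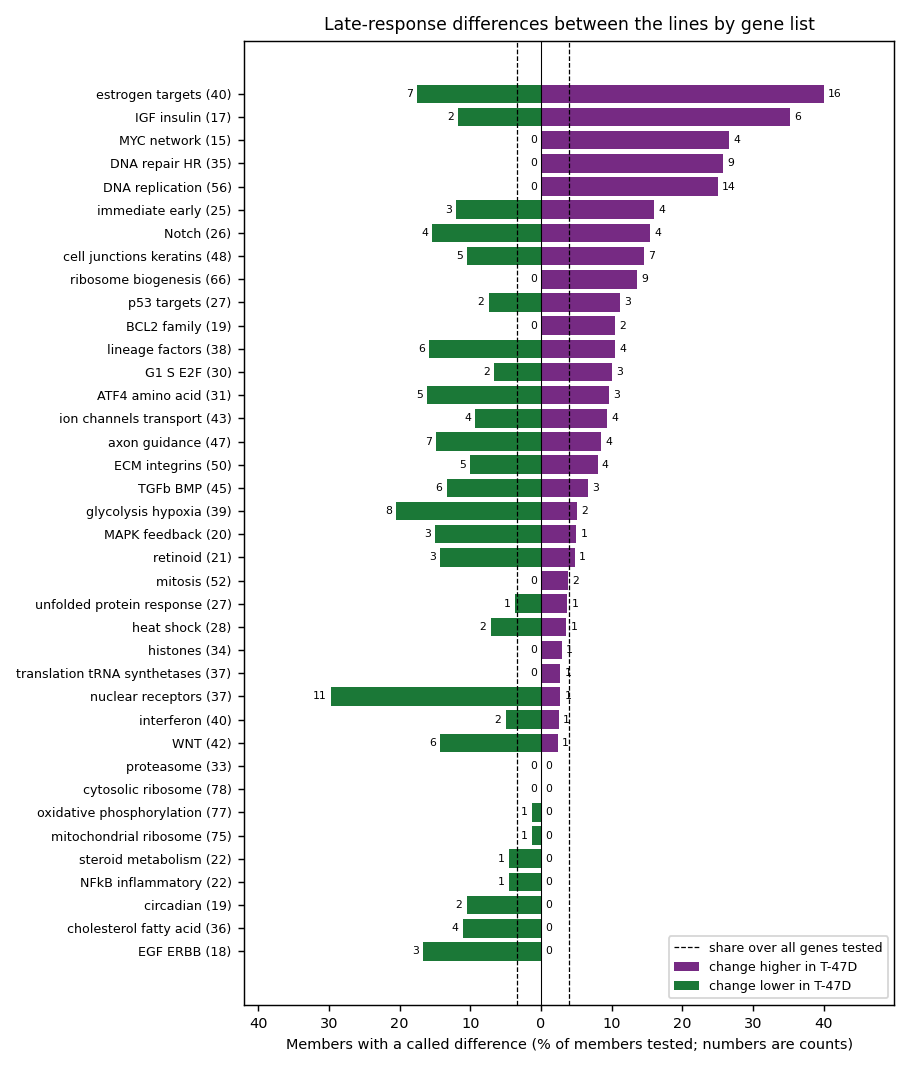
Share of each gene list (members tested in parentheses) with a called difference, higher in T-47D to the right (purple) and lower to the left (green), with counts at the bar ends and dashed lines at the shares over all genes tested. Replication, recombination, MYC and ribosome biogenesis lists have calls to the right only, and 11 of the 12 called nuclear receptor genes are to the left.

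DHRS3, which turns retinal back to retinol, had the strongest response of the retinoid genes. Its Ishikawa levels were 3.13 and 3.42 CPM at 0 h and 58.4, 51.5, 52.8 and 57.1 CPM late. In T-47D they were 7.05 and 6.79 CPM at 0 h and 6.44, 5.6, 4.09 and 4.18 CPM late. DHRS3 rose by 4.07 ± 0.15 in Ishikawa and fell by 0.44 on the log2 scale in T-47D, a difference of −4.50 ± 0.21 (edgeR adjusted p = 1.15e-10). It lies on chromosome 1 at 12627939-12678216, minus strand, in hg19. Of 21 retinoid genes tested, 3 were lower in T-47D (3.42% of all genes) and 1 higher (3.94%). Among these called genes, ALDH1A2 and CYP26B1 had 2 counts in each T-47D 0 h library. HSD11B2, which inactivates cortisol, rose in Ishikawa from 2 and 2.38 CPM to between 6.77 and 8.4. Its T-47D change of 0.23 ± 0.18 was not called, and it was the 1 of 22 steroid metabolism genes with a difference (7.36% of all genes).

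In the signalling lists, WNT genes had 6 of 42 lower in T-47D (3.42% of all genes) and 1 higher (3.94%). FZD5, a WNT receptor, had 88.1 and 83.1 CPM at 0 h and between 174 and 177 CPM late in Ishikawa, and 10.3 and 11.7 CPM at 0 h and between 8.61 and 10.6 late in T-47D. Its difference was −1.21 ± 0.10 (edgeR adjusted p = 1.94e-07). FZD4, another receptor, fell by 0.57 on the log2 scale in T-47D alone by the test. The ligand gene WNT7B rose by 0.50 ± 0.08 in Ishikawa and fell by 0.27 on the log2 scale in T-47D.

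Notch genes were called 4 in each direction of 26 (7.36% of all genes in either direction). HES2, a repressor of the HES family, rose in Ishikawa from 55.2 and 58.7 CPM to between 211 and 245. In T-47D it was at 1.35 to 2.51 CPM in all 6 libraries and not called. JAG1, a ligand, fell by 1.11 on the log2 scale in Ishikawa and 0.41 in T-47D. NRARP, a feedback target, fell by 0.90 on the log2 scale in Ishikawa, and its T-47D change of 0.03 ± 0.08 was not called. LFNG, which modifies Notch, rose by 0.66 ± 0.09 in Ishikawa and fell by 0.46 on the log2 scale in T-47D. The 4 lower calls were 2 without Ishikawa 0 h replicate 2 or T-47D 0 h replicate 1.

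Of 45 TGF-beta and BMP genes, 6 were lower (3.42% of all genes) and 3 higher (3.94%) in T-47D. SKIL, a SMAD repressor, rose by 0.67 ± 0.08 in Ishikawa, and its T-47D change of −0.24 ± 0.08 was not called. ID3, a BMP target, fell in both lines, by 0.77 on the log2 scale in T-47D and 0.24 in Ishikawa. NEDD9, a scaffold protein, rose by 0.90 ± 0.11 in T-47D and fell by 0.35 on the log2 scale in Ishikawa. Of 18 genes of EGF ligands and ERBB receptors, 3 were lower (3.42% of all genes), TGFA, HBEGF and ERBB2. ERBB2 fell from 717 and 726 CPM to 506, 511, 378 and 363 CPM in T-47D, and its difference of −0.53 ± 0.15 was lost with DESeq2 and without any of 7 single libraries. The count of 3 was 1 without Ishikawa 0 h replicate 2 or T-47D 0 h replicate 2.

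Of 47 guidance genes, 4 were higher in T-47D (3.94% of all genes) and 7 lower (3.42%). ROBO2, a SLIT receptor, rose in Ishikawa from 0.404 and 0.167 CPM to between 1.35 and 2.09 and fell in T-47D from 79.9 and 83.9 CPM to between 50.3 and 67.7. SEMA3C, a secreted semaphorin, fell in Ishikawa from 240 and 217 CPM to between 136 and 185 and rose in T-47D from 435 and 408 CPM to between 599 and 796. Its difference was 1.22 ± 0.16 (edgeR adjusted p = 4.45e-05). SEMA6A, a transmembrane semaphorin, rose by 1.47 ± 0.13 in T-47D, and its Ishikawa change of −0.43 ± 0.21 was not called. The 4 higher calls were 2 without T-47D 0 h replicate 2 and 8 without Ishikawa 0 h replicate 1.

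Of 48 junction and keratin genes, 7 were higher in T-47D (3.94% of all genes) and 5 lower (3.42%). KRT18, a keratin of simple epithelium, rose from 1372 and 1327 CPM to between 1567 and 1827 in T-47D and fell from 530 and 555 CPM to between 410 and 444 in Ishikawa. KRT8, its partner in filaments, differed by 0.64 ± 0.09 and KRT19 by 0.34 ± 0.08, a call lost without Ishikawa 0 h replicate 2 or T-47D 0 h replicate 2. KRT8 and KRT18 overlap on opposite strands. CLDN3 and CLDN4, tight junction proteins, fell by 0.54 and 0.46 on the log2 scale in T-47D and rose by 0.35 ± 0.05 and 0.17 ± 0.05 in Ishikawa.

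Of 50 matrix and integrin genes, 4 were higher in T-47D (3.94% of all genes) and 5 lower (3.42%). The higher count was 2 without T-47D 0 h replicate 1. LAMA3, a laminin chain, and COL12A1, a fibril-associated collagen, fell in Ishikawa and rose in T-47D, with differences of 0.97 ± 0.12 and 0.84 ± 0.12. THBS1, the matrix glycoprotein thrombospondin 1, rose in both lines. It had 83.9 CPM in both 0 h libraries of Ishikawa and between 638 and 695 late, and 156 and 133 CPM at 0 h in T-47D and between 530 and 624 late. The difference was −0.98 ± 0.10 (edgeR adjusted p = 1.44e-06).

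Lineage transcription factors had 6 of 38 lower in T-47D (3.42% of all genes) and 4 higher (3.94%). ELF3, an epithelial ETS factor, rose by 0.48 ± 0.08 in Ishikawa and fell by 0.83 on the log2 scale in T-47D. GRHL2, an epithelial grainyhead factor, went the other way, from 107 and 106 CPM to between 80.8 and 83.8 in Ishikawa and from a mean of 249 CPM to between 304 and 325 in T-47D. The GRHL2 difference was 0.71 ± 0.06 (edgeR adjusted p = 4.57e-07). RUNX2 rose by 1.30 ± 0.13 in T-47D and fell by 0.44 on the log2 scale in Ishikawa. SPDEF, a luminal factor, had 4 and 2 counts at 0 h and between 27 and 48 counts late in Ishikawa, against 10567 to 14677 counts in T-47D. It fell by 0.47 on the log2 scale in T-47D.

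Of 19 BCL2 family genes, 2 were higher in T-47D (3.94% of all genes), BMF and BCL2L1, and none lower. In T-47D 4 of the 19 fell (8.35% of all genes) and none rose (10.1%). In Ishikawa 3 fell (10.8%) and 4 rose (10.6%). Of 27 p53 targets, 3 were higher (3.94% of all genes) and 2 lower (3.42%). BMF, a pro-apoptotic BCL2 family member, had 22.4 and 20.2 CPM at 0 h and 4.92, 5.65, 5.41 and 4.13 CPM late in Ishikawa. In T-47D it had 41 and 38.9 CPM at 0 h and 32.6, 32.6, 24.5 and 23.2 CPM late. It fell in both, by 2.08 and 0.50 on the log2 scale, a difference of 1.58 ± 0.19 (edgeR adjusted p = 1.39e-05). BCL2L1, which encodes the survival protein BCL-XL, fell by 0.54 in Ishikawa and 0.21 in T-47D on the log2 scale, and PLK2, a p53 target, by 1.02 and 0.43. AEN, a p53-induced nuclease, rose in both lines and further in T-47D, with a difference of 0.77 ± 0.13. Without Ishikawa 0 h replicate 2 or T-47D 0 h replicate 1 the BCL2L1 call was lost.

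Genes that moved in opposite directions numbered 150 (0.885% of those tested), 47 that rose in T-47D and fell in Ishikawa and 103 that did the reverse. Those named here had at least 50 mean counts in each line. CEBPD, a transcription factor of stress and inflammation, rose from 9.27 and 9.33 CPM to between 17.9 and 21.2 in Ishikawa and fell from 16 and 16.4 CPM to between 9.4 and 10.4 in T-47D. KLF4 and BCL3, both transcription regulators, followed the same pattern, with differences of −1.32 ± 0.17 and −1.17 ± 0.15. SLCO2A1, a prostaglandin transporter, rose from 15.5 and 18.7 CPM to 87.4, 61.6, 57.8 and 90.6 CPM in Ishikawa and fell from 7.05 and 7.29 CPM to between 2.36 and 4.35 in T-47D. ST3GAL1, a sialyltransferase, FAM43A and C2orf54 also had this direction, with differences of −1.46 ± 0.16, −2.27 ± 0.17 and −3.03 ± 0.38.

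In the reverse direction were TPRG1, SEMA3C, LOC90768, FAR2P1 and RPS6KL1, with differences of 1.58 ± 0.31, 1.22 ± 0.16, 1.21 ± 0.19, 1.75 ± 0.23 and 0.99 ± 0.18.

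Many of the numerically largest differences were genes at or near 0 counts in a group. DHRS3, described above, ranked among the 10 largest lower ones with ample counts in every group. GAD1, an enzyme of GABA synthesis, had 0 counts in both T-47D 0 h libraries and 10, 6, 10 and 10 counts late, while Ishikawa had 98 to 157 counts throughout. The ephrin receptor gene EPHA3 had 0 counts at 0 h and 2 to 8 counts late in T-47D. PGLYRP2 had 0 counts at 0 h and 10 to 17 counts late in Ishikawa, against 258 to 887 counts in T-47D. PCDH10 had 4 counts in each T-47D 0 h library and 0 late. In all, 28 called genes had 0 counts in every library of at least 1 of the 4 groups, and 143 of the 1247 had under 50 mean counts in 1 line or the other. Small counts were mostly even numbers in these files, 71.2% to 74.6% of those from 1 to 10, so 2 counts may be 1 fragment.

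Among called genes with at least 50 mean counts in each line, a bound added after the values were seen, the extremes in T-47D were responses from a low baseline. COL27A1, a fibrillar collagen, had 1 and 2 counts at 0 h and 53 to 131 counts late in T-47D, and 139 to 195 counts in the Ishikawa libraries. TGM2, tissue transglutaminase, had 6 counts in each 0 h library and 79 to 200 counts late in T-47D. CYP2S1, a cytochrome P450, rose from 1.94 and 2.57 CPM to between 14.6 and 18.8 in T-47D, and its 6 Ishikawa libraries stood at 5.04 to 5.82 CPM. Its difference was 3.03 ± 0.19 (edgeR adjusted p = 4.98e-09). NPY1R, a neuropeptide Y receptor, rose from 3.48 and 4.62 CPM to between 24.7 and 30.7 in T-47D and stood at 3.18 to 3.74 CPM in all Ishikawa libraries. FMN1, an actin nucleator, rose by 2.05 ± 0.08 in T-47D up to the level that Ishikawa held, 239 to 288 CPM late against 280 to 334 CPM over all Ishikawa libraries. The others were KCNK5, MAT1A, NKAIN1, SEMA3G and GTPBP6. For GTPBP6 the T-47D 8 h replicate 2 library had 10.3 CPM against 4.34 to 5.04 in the other late libraries, and its call was lost without either T-47D 0 h library.

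In the other direction the extremes were strong responses in Ishikawa. MMP17, a membrane-anchored metalloprotease, had 4.98 and 3.94 CPM at 0 h and 69.4, 46.6, 45.6 and 68.4 CPM late in Ishikawa. ANO1, a calcium-activated chloride channel, had 5.66 and 5.86 CPM at 0 h and 62.5, 35.8, 35.2 and 64.1 CPM late. For MMP17, ANO1, SLCO2A1 and GDPD5 the 4 h replicate 1 and 8 h replicate 2 libraries of Ishikawa were the higher pair and the others the lower pair. The pooling of 4 h and 8 h places both pairs in the late group, and the cause was not tested. T-47D levels of MMP17 were 18.6 and 18.8 CPM at 0 h and 15.8 to 17.9 late, and those of ANO1 were 21.6 to 24.4 CPM in all 6 libraries, with neither called. The MMP17 difference was −3.84 ± 0.23 (edgeR adjusted p = 2.95e-09) and that of ANO1 −3.13 ± 0.29. GDPD5 and MN1, a transcriptional coregulator, differed by −2.72 ± 0.26 and −2.70 ± 0.21. RBM24, an RNA-binding protein, had 2 and 4 counts at 0 h and 75 to 154 counts late in Ishikawa, and rose by 2.10 ± 0.16 in T-47D.

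Genes of the proteasome, respiratory chain, mitochondrial ribosome and translation had few or no differences. No proteasome gene of 33 was called. Of 77 respiratory chain genes 1 was lower, as was 1 of 75 mitochondrial ribosomal genes (3.42% of all genes). Of 37 synthetases and translation factors 1 was higher (3.94%). Sterol and fatty acid synthesis had more, with 4 of 36 lower (11.1%, against 3.42% of all genes). The 4 sterol calls, which included SREBF1 at −0.38 ± 0.08, were 2 without Ishikawa 0 h replicate 2 or T-47D 0 h replicate 2. Of 25 immediate-early genes, 4 were higher (3.94% of all genes) and 3 lower (3.42%) in the late libraries. At 2 h 8 were higher (1.26% of all genes) and 2 lower (1.15%). The 4 were 2 without Ishikawa 0 h replicate 2 or T-47D 0 h replicate 2. The 2 h and late differences share their 0 h libraries. Of 31 genes of the ATF4 and amino acid list, 5 were lower (3.42% of all genes) and 3 higher (3.94%). CEBPB, among the lower, rose by 0.53 ± 0.06 in Ishikawa alone by the test. The 5 were 3 without Ishikawa 0 h replicate 1 or T-47D 0 h replicate 1.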

How the data were processed

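Bulk RNA-seq of Ishikawa and T-47D cells was analysed from the deposited counts. Alignment by the authors was to hg19 (HISAT2, SAMtools). They then counted reads over the UCSC Known Genes models using featureCounts, and the deposited values are unnormalized counts for 26364 genes, in 1 table per line. DESeq2 is also named in the submitters' processing notes. Versions and the treatment of strand and read pairs were not given in the sources used here. The 12 libraries held 41177912 to 64148903 counts.

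The 12 libraries were fitted as 4 groups, 0 h and late in each line, in R 4.3.3 with edgeR 4.0.16 (filterByExpr, TMM scaling, quasi-likelihood F-test, adjusted p under 0.05 by Benjamini-Hochberg, no replicate block). Each standard error was obtained as the size of the log2 fold change over the root of its F statistic. Genes were matched to GENCODE on GRCh37 (90.3%) and to RefSeq promoters on GRCh38.p14 (76.5%). The fitting code was tested on simulated data first.

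The members and gene lists were chosen with earlier results of these data known. Named genes were the 10 of each direction with the largest difference (mean of at least 50 counts, late libraries of the more changed line beyond both 0 h libraries), the 6 of each direction called in both lines with opposite signs and the largest smaller change, up to 4 called members per list by adjusted p, and ESR1, PGR, GREB1, TFF1 and TGFA. A version asking for 50 mean counts in each line was added after the values were seen. Some genes selected by these rules are not reported here, and further list members were named after their values were seen. Alternatives were DESeq2 1.42.0, median-of-ratios (RLE) scaling, TMM within each line, 3 filters, thresholds of 0.01 and 0.1, 2 h libraries in the fit, 3 ways of pooling 4 h and 8 h, the replicate number as a block and leaving out each library.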

Additional observations from a re-analysis of the deposited data

Results flagged for a closer look

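The late change differed between the lines for 1247 genes by a test of the difference itself, 668 higher and 579 lower in T-47D, and 150 of them were called with opposite directions in the lines. Among the genes named in the text with at least 50 mean counts in each line, those that rose in T-47D and fell in Ishikawa had these differences on the log2 scale: FANCA (0.56), KRT18 (0.69), ESR1 (0.70), GRHL2 (0.71), COL12A1 (0.84), LAMA3 (0.97), RPS6KL1 (0.99), IRS2 (1.10), LOC90768 (1.21), SEMA3C (1.22), NEDD9 (1.25), TPRG1 (1.58), RUNX2 (1.75), FAR2P1 (1.75). Those that fell in T-47D and rose in Ishikawa were CLDN4 (−0.63), WNT7B (−0.77), CLDN3 (−0.89), LFNG (−1.13), BCL3 (−1.17), SLC16A3 (−1.18), ELF3 (−1.30), KLF4 (−1.32), ST3GAL1 (−1.46), CEBPD (−1.78), EGLN3 (−1.87), FAM43A (−2.27), C2orf54 (−3.03), ROBO2 (−3.14), SLCO2A1 (−3.19), DHRS3 (−4.50).

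In 12 of 258 groups of 4 late libraries, 1 library stood apart from the other 3 for a named gene, with a gap to the nearest, as a part of the group's range, past Dixon's critical value for 4 (chance gives about 1 in 20 groups). BYSL in T-47D 8 h replicate 1 was highest, at 39.3 CPM against 34.5 in the nearest library, a gap of 0.881 of the range. CLDN4 in T-47D 8 h replicate 2 was lowest, at 473 CPM against 522 in the nearest library, a gap of 0.920 of the range. FMN1 in Ishikawa 8 h replicate 2 was highest, at 320 CPM against 286 in the nearest library, a gap of 0.866 of the range. GINS3 in T-47D 4 h replicate 1 was lowest, at 13.2 CPM against 14.0 in the nearest library, a gap of 0.856 of the range. GTPBP6 in T-47D 8 h replicate 2 was highest, at 10.3 CPM against 5.04 in the nearest library, a gap of 0.882 of the range. MRE11A in Ishikawa 4 h replicate 1 was lowest, at 32.2 CPM against 34.4 in the nearest library, a gap of 0.839 of the range. MYBL1 in T-47D 8 h replicate 2 was highest, at 160 CPM against 140 in the nearest library, a gap of 0.852 of the range. NKAIN1 in Ishikawa 4 h replicate 1 was highest, at 2.50 CPM against 1.47 in the nearest library, a gap of 0.881 of the range. RFC4 in Ishikawa 8 h replicate 2 was lowest, at 46.2 CPM against 53.8 in the nearest library, a gap of 0.843 of the range. SEMA6A in Ishikawa 8 h replicate 1 was lowest, at 1.05 CPM against 1.38 in the nearest library, a gap of 0.890 of the range. TGFA in Ishikawa 8 h replicate 1 was highest, at 594 CPM against 544 in the nearest library, a gap of 0.915 of the range. THBS1 in Ishikawa 8 h replicate 2 was highest, at 695 CPM against 647 in the nearest library, a gap of 0.853 of the range.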

How the results depend on the processing

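Every gene called both as reported and under an alternative kept its direction, under all alternatives run. The total of 1247 was 1675 with DESeq2, 1246 with median-of-ratios scaling, 1271 with TMM within each line, 1363 with no filter, 1531 with the 2 h libraries in the fit and 1142 with 8 h alone as late. The share of calls higher in T-47D was 53.6% as reported, 43.9% with median-of-ratios scaling and 44% with DESeq2, where 938 genes were lower. At an adjusted p of 0.01 there were 613 calls, 303 higher and 310 lower, with 1848 changes in Ishikawa, 1843 in T-47D and 59 of opposite direction. At 0.1 there were 252 of opposite direction. With 4 h alone as late there were 747 calls, 340 higher, with 2082 changes in Ishikawa, 1966 in T-47D and 88 of opposite direction. Fewer libraries enter that fit. Among replication genes 14 were called higher as reported and 26 with 4 h and 8 h as separate groups. Leaving out each library in turn gave 738 to 1287 calls, 358 to 732 higher, 379 to 650 lower, 1193 to 3727 changes in Ishikawa, 1397 to 3294 in T-47D and 77 to 162 of opposite direction. Where a 0 h library is left out, 1 library stands for that group and is assumed to vary like the others. Same-numbered replicates showed no strong shared deviation (r of −0.087 to 0.050 in Ishikawa and −0.022 to 0.036 in T-47D across genes). These values cannot tell whether same-numbered libraries were prepared together. With the replicate number as a block the total was 1076, with 9 replication and 5 recombination genes, and 10 of the named genes lost their call. Of the 129 named genes with a called difference, 86 kept it at an adjusted p of 0.05 in every setting in which they were tested. ANLN, ALDH1A2, CDC25A, POLE, LIG1, MCM2, MCM5 and BRCA1 lost it in 11 to 14 of the settings run for each. In all, 143 called genes had under 50 mean counts in 1 line or the other, where the size of a change rests on few counts. Their median size was 2.30 on the log2 scale, against 0.55 for the 1104 called genes with at least 50 in both lines.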
